A study of Apis mellifera with 9 samples.

Results

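Honey bees (Apis mellifera) carry a small set of antimicrobial peptide genes, and the 4 described here are hymenoptaecin (row GB51223-RA), abaecin (GB47318-RA), defensin 1 (GB41428-RA) and apidaecin (GB47546-RA). They were chosen by identifier, and all 4 are among the 15314 GB rows of the deposited read count table. The table holds identifiers without gene names. The names are those attached to these identifiers, of official gene set release 3.2, when the rows were chosen, and 0 of the 15314 identifiers matched the 12398 genes of the RefSeq table used here (assembly Amel_HAv3.1). Neither the name of a row nor the tissue could therefore be checked against other genes, and no coordinates are given.

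Antimicrobial peptides are short secreted molecules that kill bacteria and other microbes, and in insects they are made mainly by the fat body, by blood cells and by surface tissues such as the gut. Their genes are switched on through the Toll and Imd pathways, which end in transcription factors of the NF-kappaB family, so their transcripts are widely read as a sign of immune activity. Apidaecin and abaecin are proline-rich peptides, hymenoptaecin is glycine-rich, and defensin 1, also known as royalisin, is a cysteine-rich peptide found in royal jelly.

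The larvae were reared in the laboratory on a diet of 50% royal jelly with sugars and yeast extract, which held no quercetin (control), 0.1 mM quercetin or 0.25 mM quercetin. The flavonol quercetin is common in plants, and pollen and honey bring it into the bee diet. All larvae came from 1 bee research facility, no strain is given, 10 to 12 newly hatched larvae entered each replication, and they fed for 3 days. Each diet has 3 libraries, and the labels do not say whether these share a colony, so the p-values cover only the spread between libraries, which may be technical. The labels give whole larvae as the source and midguts in the extraction protocol. In such bulk RNA, fewer cells of a type and less RNA per cell cannot be told apart.

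Between 34456449 and 42874091 reads per library fell on GB rows, so that 1 read is worth 0.0233 to 0.0290 CPM (counts per 1000000 reads on GB rows). The 3 columns of 0.25 mM share 1 heading and are called libraries a, b and c, as names only. Libraries b and c stood apart from the other 7 on the first principal component of all genes tested, at 34.4 and 33.1, with library a at 1.70 and the others from -19.6 to -2.74. Results at 0.25 mM are therefore given with and without single libraries.

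All 4 peptide genes were weakly expressed in every diet. Together the 4 rows held between 88 and 260 reads per library, or 2.55 to 7.26 CPM. Without correction for transcript length, 39.0% of all rows had a lower mean CPM than defensin 1 and 23.0% a lower one than abaecin. Apidaecin was the member that differed most from control, about 4-fold higher at both doses. It passed the adjusted threshold at 0.25 mM but not at 0.1 mM. Its unadjusted p was similar at both (edgeR, 0.00294 and 0.00223), while 4099 genes were called at 0.25 mM and 8 at 0.1 mM. The split at the threshold is therefore not a difference between the doses. Hymenoptaecin was highest in library 2 of 0.1 mM (3.83 CPM), and library 1 of that diet (1.38 CPM) also lay above every control. Defensin 1 was 1.29-fold of control at 0.25 mM and 1.22-fold at 0.1 mM in the fit, and neither was called. Abaecin was close to the limit of detection. Of the 4 rows, 3 passed the filter on low counts and were tested; abaecin did not.

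**Figure D1:**
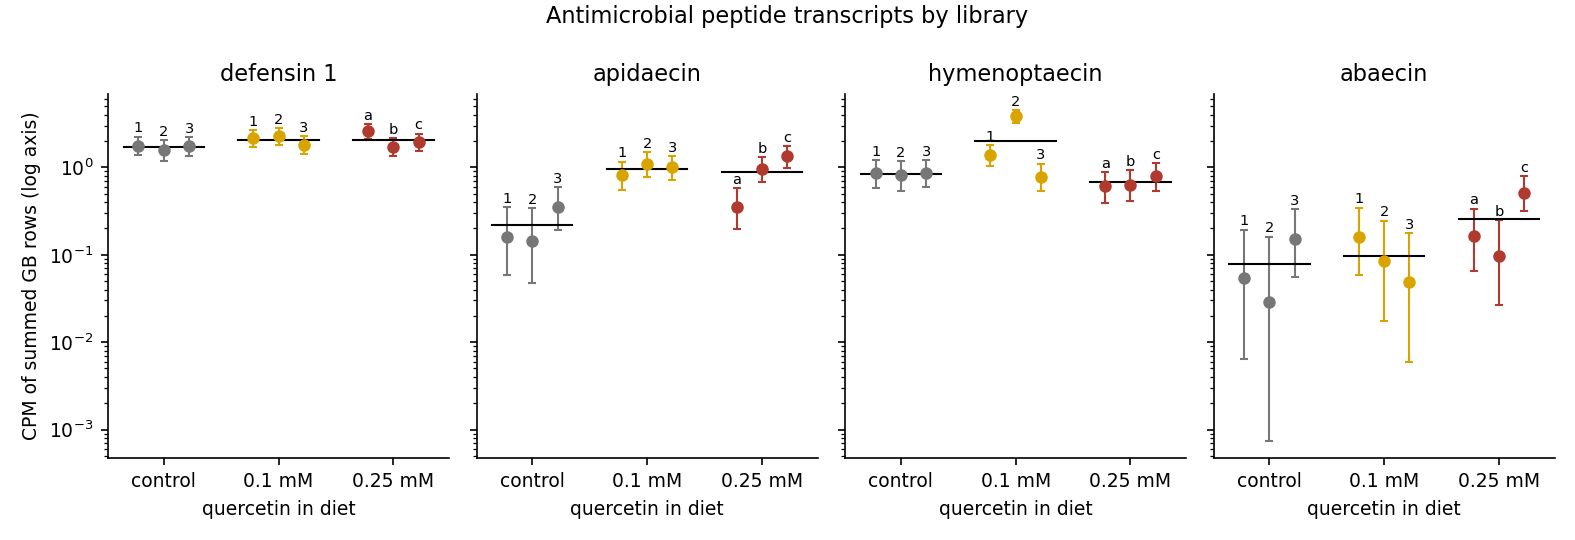
CPM of each peptide gene in every library on a log axis, by diet. Points are libraries (numbers and letters name them), bars are exact 95% Poisson intervals for counting error, and black lines are diet means. Apidaecin lies between 0.820 and 1.09 CPM at 0.1 mM, against 0.145 to 0.356 CPM in control, and hymenoptaecin reaches 3.83 CPM in library 2 of 0.1 mM.

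Apidaecin is a family of proline-rich peptides that act inside bacteria, where they block protein synthesis. Its row had 6, 5 and 14 reads in control libraries 1, 2 and 3, which is 0.161, 0.145 and 0.356 CPM. At 0.1 mM it had 31, 39 and 41 reads, or 0.820, 1.09 and 0.998 CPM. At 0.25 mM it had 15, 39 and 52 reads in libraries a, b and c, or 0.350, 0.953 and 1.33 CPM. All libraries of 0.1 mM lay above all controls, while at 0.25 mM library a lay at the level of control library 3 and libraries b and c lay above every control. With TMM factors, which correct for differences in composition between libraries, library a at 0.366 CPM lay just above that control at 0.351 CPM. All libraries of 0.25 mM then lay above all controls, as for 21.9% of genes. Another 24.5% had all of them below all controls. Of the genes tested, 9.57% had all 0.1 mM libraries above all controls. The diet means were 0.221 ± 0.117 CPM in control, 0.969 ± 0.137 CPM at 0.1 mM and 0.878 ± 0.495 CPM at 0.25 mM (SD, n = 3 each).

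At 0.25 mM apidaecin rose against control, with a log2 fold change of 2.02 ± 0.509 (SE; edgeR quasi-likelihood test, adjusted p = 0.0179). That is 4.05-fold, with a 95% interval from 1.83-fold to 8.94-fold, and 17.1% of the 11508 genes tested were called higher in this comparison. A fitted increase of at least 4-fold, a log2 value of 2, was found in 0.113% of genes, and apidaecin passed this cut narrowly. It fell below the cut without scaling factors (1.95) and in limma-voom (1.89). With RLE factors, upper-quartile factors and in DESeq2 it stayed above (2.02, 2.06 and 2.05). The call depended on single libraries. It was lost without control library 1 (edgeR, adjusted p = 0.0553), control library 2 (0.0669), library b (0.0537) or library c (0.0687). In these fits the log2 fold change was 1.82, 1.81, 1.97 and 1.60. The unadjusted p (edgeR) was 0.0144, 0.0137, 0.00819 and 0.0117, in the same order. Calls among all genes tested also fell, from 4099 with all 9 libraries to 2698, 1405, 1568 and 1112. Without control library 3 they fell to 1908, and apidaecin stayed called (edgeR, adjusted p = 0.0342). Without library a 6491 genes were called, and apidaecin had an adjusted p of 0.00041 (edgeR) and a log2 fold change of 2.41. With b and c both left out, library a alone stood 0.74 above control on the log2 scale (edgeR, adjusted p = 0.451), with the lone library taken to vary like the other diets.

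At 0.1 mM the difference from control was of much the same size, at 2.10 ± 0.507 on the log2 scale or 4.28-fold (95% interval 1.95-fold to 9.42-fold). It did not pass the adjusted threshold (edgeR, unadjusted p = 0.00223, adjusted p = 0.224). Of the genes tested, 0.0695% were called higher at this dose and 5.77% had an unadjusted p under 0.05 in that direction. Apidaecin held place 114 of 11508 by p, beside place 1893 at 0.25 mM (edgeR, unadjusted p = 0.00294). The adjusted p fell to 0.0299 when library a of the other dose was left out of the shared fit, while the log2 value stayed at 2.10. In that fit 112 genes were called over the whole table, beside 8 with all 9 libraries. With any other single library left out, the adjusted p of apidaecin was at least 0.198. Both doses share the same controls, so the 2 differences are not independent of each other.

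Between the doses apidaecin differed by -0.08 ± 0.410 on the log2 scale (0.25 mM minus 0.1 mM; edgeR, adjusted p = 0.903), and 0% of genes were called in this comparison. The 95% interval ran from 0.500-fold to 1.79-fold, so the doses may differ by up to these amounts. Over the 3 diets together apidaecin passed the test for any difference (edgeR, adjusted p = 0.0366), as did 20.9% of genes. Without library a the adjusted p was 0.000905, and 6014 genes were called over the whole table, beside 2402 with all 9 libraries. The call was lost without any 1 of the other 8 libraries (adjusted p between 0.0590 and 0.116). In those fits 0 to 1043 genes were called over the whole table, and 0 without control library 1 or control library 2. A straight line in dose gave a change of 1.44 over 0.25 mM (edgeR, adjusted p = 0.0952), beside 38.4% of genes with a called trend. Bee genomes hold near-identical apidaecin copies, and no source used here says how reads shared between copies were counted, so the level of this row is uncertain in that respect.

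**Figure D2:**
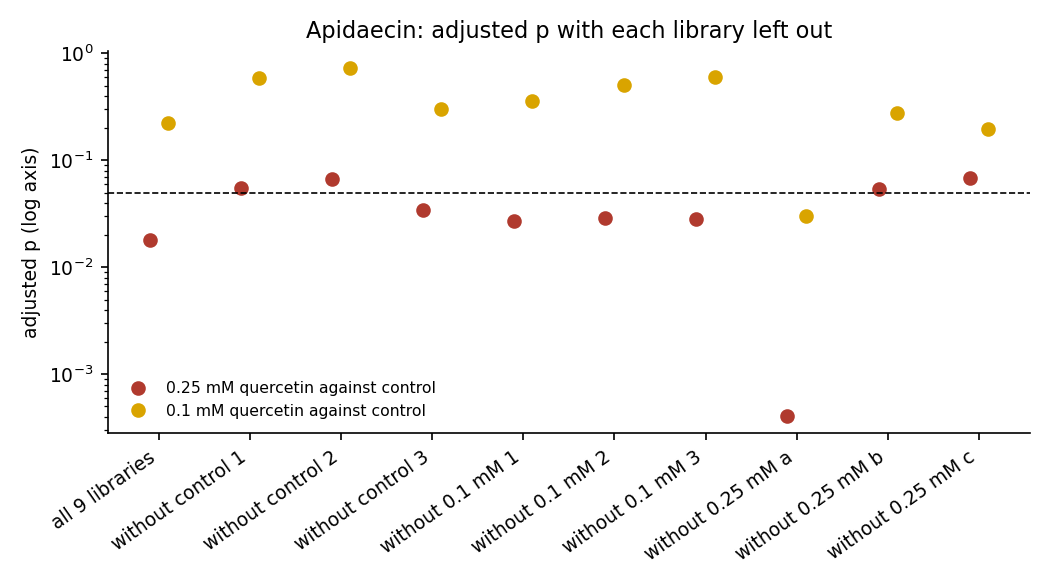
Adjusted p of apidaecin (log axis, edgeR) with all 9 libraries and with each library left out in turn, for 0.25 mM against control and for 0.1 mM against control; the dashed line is the threshold of 0.05. At 0.25 mM the points without control 1, control 2, b or c lie above the line, and at 0.1 mM only the point without library a lies below it.

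Hymenoptaecin, a glycine-rich peptide active against a range of bacteria, had almost the same level in all controls, at 0.858, 0.813 and 0.864 CPM. At 0.1 mM it had 1.38, 3.83 and 0.779 CPM in libraries 1, 2 and 3. At 0.25 mM it had 0.606, 0.635 and 0.794 CPM in libraries a, b and c. Library 2 of 0.1 mM held 137 reads, the highest count of any member in any library, while library 3 of the same diet was below every control. In CPM of the summed GB rows the 0.25 mM libraries all lay below the controls, but with TMM factors the highest of them (0.822) was above the lowest control (0.804). Of the genes tested, 33.9% had all 0.25 mM libraries below all controls in unscaled CPM, and 24.5% with TMM factors.

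The mean of hymenoptaecin was 0.845 ± 0.0281 CPM in control, 1.99 ± 1.61 CPM at 0.1 mM and 0.679 ± 0.101 CPM at 0.25 mM (SD, n = 3 each). No comparison passed the adjusted threshold. At 0.1 mM the log2 difference from control was 1.24 ± 0.504 (edgeR, unadjusted p = 0.0354, adjusted p = 0.513), and it was 0.34 without library 2 (adjusted p = 0.909). At 0.25 mM it was -0.24 ± 0.552 (edgeR, adjusted p = 0.746), with a 95% interval from 0.358-fold to 1.99-fold. Between 0.25 mM and 0.1 mM it was -1.48 ± 0.512 (edgeR, adjusted p = 0.0930), and -0.59 without library 2 of 0.1 mM. DESeq2 called this last difference (log2 value -1.49, adjusted p = 0.0297). The test for any difference between diets gave an adjusted p of 0.0871 in edgeR. Without library 3 of 0.1 mM, the lowest of that diet, the gene was called in it, with an adjusted p of 0.0390. In that fit 1043 genes were called over the whole table.

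Defensin 1, a cysteine-rich peptide active mainly against Gram-positive bacteria, had the highest summed read count of the 4 rows, and its differences from control were smaller than 2-fold. It had 1.77, 1.57 and 1.75 CPM in control, 2.14, 2.26 and 1.80 CPM at 0.1 mM, and 2.59, 1.71 and 1.95 CPM in libraries a, b and c of 0.25 mM. Library a, the lowest of its diet in apidaecin, was the highest of all 9 in defensin 1, with 111 reads. The 0.1 mM libraries lay just above all controls in unscaled CPM, as for 9.57% of genes tested, but not with TMM factors. The 0.25 mM libraries overlapped the controls in unscaled CPM and lay above them with TMM factors, as for 21.9% of genes. Diet means were 1.70 ± 0.112, 2.07 ± 0.240 and 2.08 ± 0.455 CPM from control to 0.25 mM (SD, n = 3 each).

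The log2 difference of defensin 1 from control was 0.37 ± 0.193 at 0.25 mM (edgeR, adjusted p = 0.150) and 0.29 ± 0.194 at 0.1 mM (edgeR, adjusted p = 0.708). The 95% intervals reached from 0.960-fold to 1.75-fold at 0.25 mM and from 0.904-fold to 1.65-fold at 0.1 mM, so each excluded a change of 2-fold in the fit of all 9 libraries. The value at 0.25 mM depended on the libraries. Leaving out library a gave 0.19, leaving out b gave 0.52 (edgeR, unadjusted p = 0.0258, adjusted p = 0.0927) and leaving out both b and c gave 0.71 (unadjusted p = 0.00868, adjusted p = 0.112). Between 0.25 mM and 0.1 mM the log2 difference was 0.08 ± 0.190, with an interval from -0.34 to 0.51 (edgeR, adjusted p = 0.775).

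**Figure D3:**
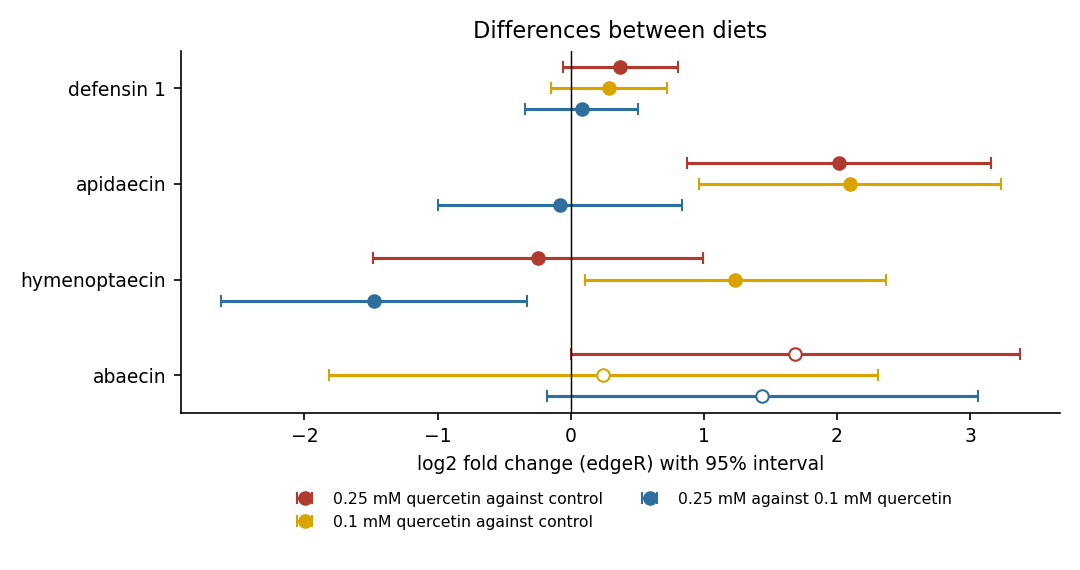
Log2 fold changes of the peptide genes with 95% intervals for 3 comparisons (edgeR). Filled points come from the filtered table of 11508 genes; open points for abaecin come from a fit of 13966 genes without a filter. The apidaecin intervals lie above 0 against control at both doses, at 0.88 to 3.16 for 0.25 mM and 0.96 to 3.24 for 0.1 mM.

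Abaecin, a proline-rich peptide known to act together with pore-forming peptides such as hymenoptaecin, was barely detected. It had 2, 1 and 6 reads in control, 6, 3 and 2 reads at 0.1 mM, and 7, 4 and 20 reads in libraries a, b and c of 0.25 mM. In CPM these are 0.0536, 0.0290 and 0.152 in control, 0.159, 0.0838 and 0.0487 at 0.1 mM, and 0.163, 0.0977 and 0.512 at 0.25 mM. Library c was the only one whose exact Poisson interval, 0.313 to 0.791 CPM, lay clear of the measured level of all the others, and the diets overlapped. The mean was 0.258 ± 0.223 CPM at 0.25 mM, against 0.0784 ± 0.0653 CPM in control (SD, n = 3 each; exact two-sided permutation test, p = 0.2, where 0.1 is the smallest possible). At 0.1 mM it was 0.0971 ± 0.0562 CPM (exact two-sided permutation test against control, p = 0.6). Without library c the difference of 0.25 mM from control was 0.0521 CPM, beside 0.179 CPM with it. In a fit without a filter the log2 difference at 0.25 mM was 1.69 ± 0.761 (edgeR, unadjusted p = 0.05002, adjusted p = 0.124). The dose trend in that fit was 1.86 over 0.25 mM (edgeR, unadjusted p = 0.0260, adjusted p = 0.0737). Neither passed the adjusted threshold, and the 3 libraries of 0.25 mM differed by more than counting error, at a chi-square of 7.84 per degree of freedom, beside 1.99 in control and 1.28 at 0.1 mM.

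The make-up of the peptide reads does not depend on how libraries are scaled. Defensin 1 gave 62.3%, 61.4% and 56.1% of the 4 rows' reads in control, 47.6%, 31.2% and 49.7% at 0.1 mM, and 69.8%, 50.4% and 42.5% in libraries a, b and c of 0.25 mM. Apidaecin gave 5.66%, 5.68% and 11.4% in control, 18.2%, 15.0% and 27.5% at 0.1 mM, and 9.43%, 28.1% and 29.1% at 0.25 mM. The 95% Clopper-Pearson intervals of apidaecin, which cover counting error only, were 12.7% to 24.9%, 10.9% to 19.9% and 20.5% to 35.4% at 0.1 mM, against 2.11% to 11.9%, 1.87% to 12.8% and 6.36% to 18.4% in control, so that the intervals of some libraries overlapped between the diets. For each read of defensin 1, apidaecin had 0.383, 0.481 and 0.554 reads at 0.1 mM, against 0.0909, 0.0926 and 0.203 reads in control. At 0.25 mM this ratio was 0.135 in library a, inside the control range, and 0.557 and 0.684 in b and c. These shares are not corrected for transcript length, so they compare libraries and not the levels of the peptides with each other.

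**Figure D4:**
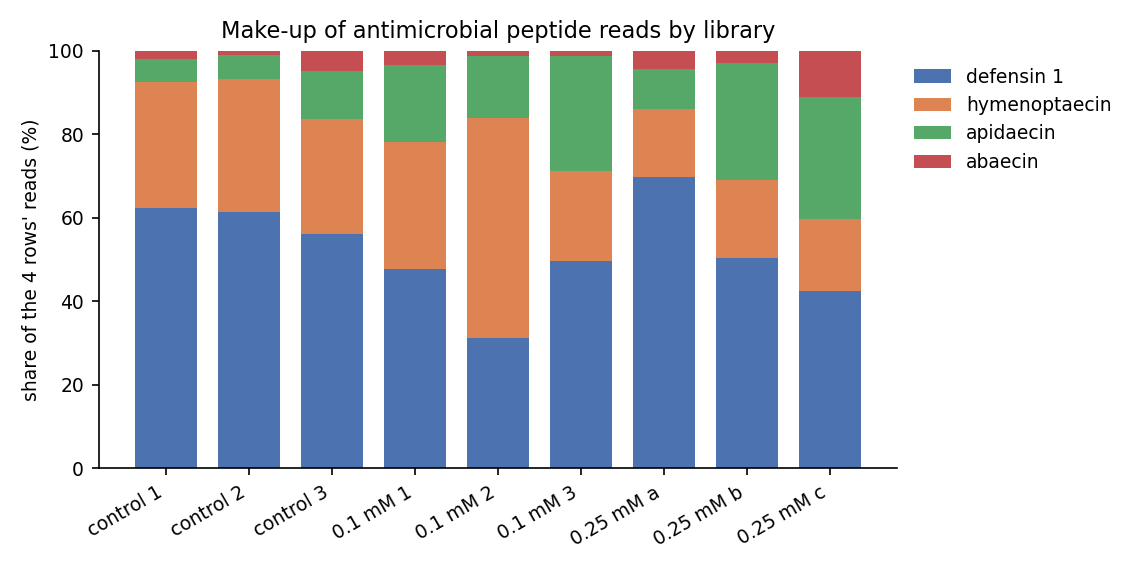
Share of the 4 rows' reads that belongs to each peptide gene, in percent, for every library from control to 0.25 mM. The apidaecin share is 5.66% to 11.4% in control and 15.0% to 27.5% at 0.1 mM, library a of 0.25 mM resembles control at 9.43%, and hymenoptaecin takes 52.7% in library 2 of 0.1 mM.

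The members differed in how far replications of a diet lay apart. The SD between libraries of a diet, on the scale of log2(CPM + 0.1), was 0.642 for hymenoptaecin, 0.585 for apidaecin and 0.201 for defensin 1, beside a median of 0.161 over all genes tested and 0.264 over the 3836 least abundant of them. Hymenoptaecin exceeded 97.5% of these least abundant genes, apidaecin 96.4% and defensin 1 28.2%. Of all genes tested they exceeded 98.9%, 98.4% and 62.4%. Genes were not matched to the members by abundance, and counting error widens this SD at low counts. The spread of hymenoptaecin came from the 0.1 mM diet, where the chi-square of its counts per degree of freedom reached 50.5, beside 0.0333 in control and 0.605 at 0.25 mM. A value near 1 is what counting error alone gives. For apidaecin it was 2.32 in control, 0.717 at 0.1 mM and 11.7 at 0.25 mM, where library a fell below b and c. For defensin 1 it was 0.264, 1.09 and 4.15 from control to 0.25 mM.

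**Figure D5:**
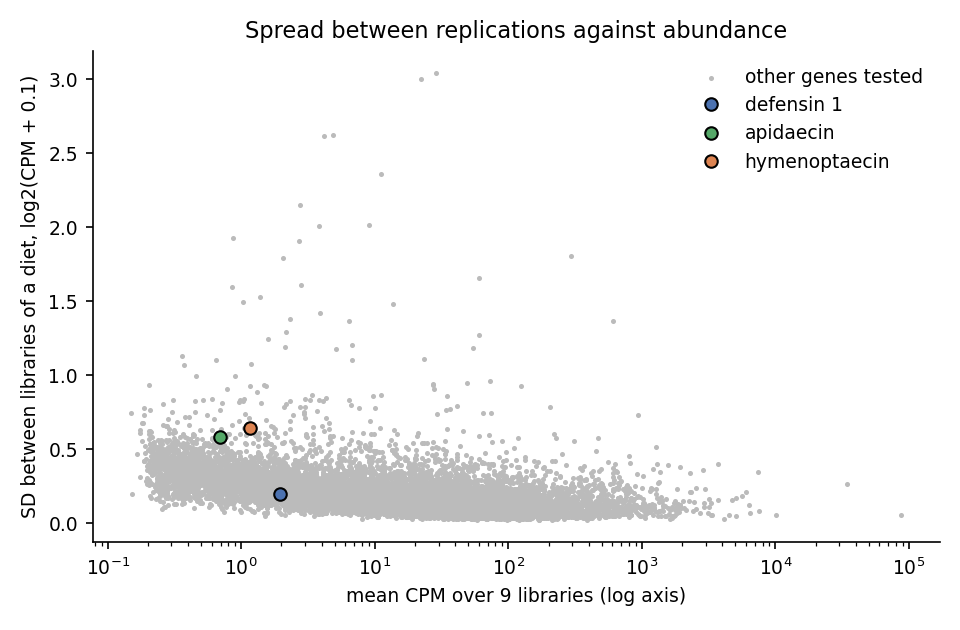
SD between libraries of a diet, log2(CPM + 0.1), against mean CPM over the 9 libraries (log axis) for the 11508 genes tested. Grey points are other genes. Hymenoptaecin at 0.642 and apidaecin at 0.585 exceed 97.5% and 96.4% of the 3836 least abundant genes, and defensin 1 at 0.201 exceeds 28.2%. Genes were not matched to the members by abundance.

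Hymenoptaecin and apidaecin were both highest of their diet in control library 3, in library 2 of 0.1 mM and in library c of 0.25 mM. For hymenoptaecin this meant 34 reads against 32 and 28 in control, and 31 against 26 and 26 at 0.25 mM. Both differences are within counting error (chi-square per degree of freedom 0.0333 and 0.605). Abaecin was also highest of its diet in control library 3 and library c, and defensin 1 in library 2 of 0.1 mM. Deviations from the diet mean of log2 CPM were compared for the 6 pairs of members over the 9 libraries. Pearson's r was positive in 5 of the 6 pairs and ran from -0.494 (defensin 1 and apidaecin) to 0.519 (abaecin and apidaecin). Spearman's rho for these pairs was -0.383 and 0.550. No pair passed the test, which does not show that they vary independently, with raw p between 0.208 and 0.574 for r and between 0.0880 and 0.537 for rho (exact permutation within diets, 216 arrangements). The adjusted p was 0.574 for r in every pair and at least 0.500 for rho. As a description, r was also taken without the 2 libraries farthest from the median of the first-named gene of a pair. The diet means were not taken again. Then r was 0.0609 for defensin 1 and apidaecin, -0.131 for abaecin and apidaecin and -0.291 for hymenoptaecin and defensin 1. In the other 3 pairs r was larger. It was 0.666 for hymenoptaecin and apidaecin (0.204 with all libraries) and 0.576 for abaecin and defensin 1 (0.321). For hymenoptaecin and abaecin it was 0.417 (0.256). The libraries left out follow the order of naming, so no conclusion is drawn from these values. Over the levels themselves, without removing the diet means, apidaecin fell into a low and a high cluster of libraries, so no pooled r is given for its pairs. For the other 3 pairs r was -0.0584, 0.334 and 0.466, with adjusted p of at least 0.596 (exact permutation of 9 libraries).

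For each member, the row most alike over the 9 libraries was sought among 7212 rows with a mean of at least 10 CPM, by Pearson's r of log2(CPM + 1). These r are the highest of many and are given as a description, without a test. The row closest to apidaecin was GB49885-RA, with r = 0.974 and Spearman's rho = 0.967, and 24 rows exceeded 0.9. GB49885-RA had 372, 434 and 452 CPM in control, 652, 874 and 851 CPM at 0.1 mM, and 556, 844 and 1059 CPM in libraries a, b and c of 0.25 mM. Like apidaecin, it was lower in library a than in any other quercetin library. Its log2 fold change against control was 1.04 at 0.25 mM and 0.92 at 0.1 mM. GB49885-RA was chosen for its likeness to apidaecin over these same libraries, so its values are no separate evidence. Hymenoptaecin was closest to GB55973-RA (r = 0.818, rho = -0.167), which had 60.2 CPM in library 2 of 0.1 mM and at most 32.9 CPM elsewhere, so that this likeness rested on that library. Defensin 1 was closest to GB42385-RA (r = 0.920, rho = 0.833). Abaecin was closest to GB46469-RA (r = 0.912, rho = 0.650), a likeness that rests on few reads. Both were highest in library c of 0.25 mM, and r was not taken without it. GB46469-RA had 407 CPM there and at most 358 CPM elsewhere, and abaecin had 20 reads there and at most 7 elsewhere.

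Read against all genes, 1 of the 3 members tested was called at 0.25 mM, where 35.6% of genes were called in either direction. At 0.1 mM and between the doses 0 of 3 were called in edgeR, and 2 and 1 of the 3 had an unadjusted p under 0.05, beside 9.01% and 34.1% of genes. DESeq2 called 0 of 3 at 0.1 mM, where it gave apidaecin no adjusted p (unadjusted p = 0.000102), and 1 of 3 between the doses. Over the whole table it called 147 and 2060 of 11508 genes in these comparisons. The median log2 difference of the 3 members was 0.37 at 0.25 mM and 1.24 at 0.1 mM, beside 0.00658 and -0.00457 over all genes, where TMM scaling holds the median near 0. With 3 members the median is the value of 1 gene, and at 0.1 mM it is that of hymenoptaecin, which was 0.34 without library 2. The other genes of the Toll and Imd pathways were not examined, because no identifier could be paired with a name.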

How the data were processed

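For 9 libraries of honey bee larvae the authors deposited read counts per feature in 1 table, without normalization. CASAVA 1.8, HTSeq and edgeR are named without roles, per the submitters' processing notes. Not given in the sources used here are the aligner, the genome build, the annotation and the strand setting. The 5 bookkeeping rows (reads on no feature and the like) stayed out of library sizes and tests, and 0 columns were left unused.

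CPM were computed from the counts over the summed GB rows, with exact 95% Poisson intervals for counting error. Tests were edgeR 4.0.16 quasi-likelihood fits (R 4.3.3) over all 9 libraries, with 1 coefficient per diet, TMM factors and filterByExpr, which kept 11508 rows and removed 3806. The Benjamini-Hochberg adjustment ran over all genes tested, with a threshold of 0.05. Standard errors are the fold change divided by the root of F, and 95% intervals use the test's own degrees of freedom. Permutation tests used Python 3.11.15. The fits were also run on simulated counts with known changes. Libraries were drawn independently there, so that run does not show how calls behave when libraries of a diet stand apart, as b and c did.

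The members and lists were chosen with earlier results of these data known. Named rows are the members and, for each, the row with the highest Pearson's r. Lists of pathway genes and of markers of midgut, fat body, blood cells and muscle were not evaluated, because identifiers could not be paired with names. Alternatives were RLE, upper-quartile or no scaling factors, DESeq2 1.42.0, limma-voom (limma 3.58.1), no filter, a minimum of 5 CPM in 3 libraries, fits of the 6 libraries compared, the replicate block, and omission of single libraries or of b and c together.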

Additional observations from a re-analysis of the deposited data

How the results depend on the processing

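No member passed the filter of at least 5 CPM in 3 libraries, so it gave no value. Apidaecin stayed called at 0.25 mM under all scaling and filter settings with a value, in DESeq2, limma-voom and with 6 libraries (adjusted p at most 0.0457); its log2 fold change was 0.74 without b and c and 1.60 to 2.56 with 1 library left out. With 1 library left out it was 1.89 to 2.64 at 0.1 mM, -0.50 to 0.31 between the doses and 1.11 to 1.97 for the dose trend, which DESeq2 called at 1.68 (adjusted p = 0.0246). F for any diet difference was 5.75 to 27.6 for apidaecin and 2.11 to 15.4 for hymenoptaecin. Hymenoptaecin was called by DESeq2 between the doses, at -1.49, and its dose trend turned from -0.46 to 0.26 without b and c. With 1 library left out, defensin 1 between the doses was -0.10 to 0.22, and the abaecin difference between 0.1 mM and control -0.0121 to 0.0558 CPM. Over levels, r was -0.150 to 0.0561 for hymenoptaecin and abaecin and -0.0295 to 0.809 for hymenoptaecin and defensin 1. Over deviations it was -0.0470 to 0.705 for hymenoptaecin and abaecin and -0.684 to 0.351 for defensin 1 and apidaecin. The cause of these changes was not tested.

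Same-numbered control and 0.1 mM libraries did not deviate together (r = -0.157, 0.112 and -0.175 across genes), so the numbers were not taken as pairs. With the replicate block, apidaecin at 0.1 mM had a log2 value of 2.11 (edgeR, adjusted p = 0.132), no member was called, and 23 genes were called in all. The count of genes called was 82 to 6491 over the alternatives at 0.25 mM (4099 in the report's fit), 0 to 147 at 0.1 mM (8), 0 to 5367 between the doses (0), 162 to 5982 for the trend (4417) and 0 to 6014 for any difference (2402). Of the 9 abaecin values, 3 rest on 1 or 2 reads, and 3 reads correspond to 0.0700 to 0.0871 CPM.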
